A study of Mus musculus with 8 samples.

Results

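The genes described here are 10 that mark aerocytes (aCap cells) in the mouse lung, Car4, Apln, Tbx2, Fibin, Prx, Chst1, Rprml, Sirpa, Tbx3 and Cyp4b1. They were taken by name from a table of 54532 genes, in which each had 1 row, and all 10 passed the filter on low counts that 15564 genes passed. RNA was sequenced from lung endothelial cells (ECs) of wild-type C57BL/6J mouse pups at day 14. In 4 libraries the pups had been reared in room air (21% O2, normoxia) and in 4 libraries in hyperoxia (80% O2) from the day of birth. ECs were enriched by discarding cells bound to CD45-coated beads and keeping cells bound to CD31-coated beads, so each library is a bulk sample of every EC type and of any other cell that came through. The question was whether the aerocyte markers moved together, and by like amounts, when pups were reared in hyperoxia.

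Aerocytes are large, thin capillary ECs that lie against the alveolar surface, where gas crosses between air and blood. They form the alveolar capillary bed with a second type, the general capillary cells (gCap cells), which are regarded as the progenitors of the bed. Aerocytes make apelin, the product of Apln, and gCap cells carry its receptor, Aplnr. In bulk RNA, more cells of a type and more RNA per cell cannot be told apart, and this holds for every value given here.

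Library totals ranged from 16098086 to 18300730 counts. The labels do not say whether the 4 libraries of a group came from separate animals. The p-values measure the spread between these libraries, which may be partly technical. Male and female transcripts were both present in 5 libraries, while normoxia 2 and hyperoxia 4 held male RNA and hyperoxia 3 female RNA. The libraries of a group were thus not all made from the same RNA. Those with both kinds of transcript held RNA of more than a single pup. The libraries were endothelial by their markers, with Cdh5 (VE-cadherin) at 4121 ± 175 CPM (counts scaled to library size, SD, n = 4) in normoxia and 4035 ± 140 CPM in hyperoxia. The summed CPM of 10 pan-endothelial markers overlapped between the groups (exact two-sided permutation test, p = 0.0571). Of these markers 3 were higher and 2 lower past an adjusted p of 0.05 (edgeR's quasi-likelihood test). Over all genes tested, 18.5% were higher and 17.1% lower. The share of counts on mitochondrial genes was 0.960 ± 0.0755% in normoxia and 1.33 ± 0.0966% in hyperoxia (exact two-sided permutation test, p = 0.0286, the smallest that 4 against 4 can give), and its part in the results was not tested.

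All 10 genes were higher in hyperoxia past an adjusted p of 0.05 (edgeR's quasi-likelihood test, Benjamini-Hochberg over all genes tested). They were chosen with earlier results of these data known, so their counts beside the shares of all genes are a description only. Over all genes tested, 18.5% were called higher and 17.1% lower, 35.6% in all. The same shares stand beside the counts of every other list given below. The rise differed widely from gene to gene, from 0.21 on the log2 scale for Tbx3 to 1.94 for Rprml, with a median of 0.85 beside a median of -0.0040 over all genes tested. In 9 of the 10 genes every hyperoxia library was above every normoxia library, which was the case for 17.8% of all genes tested (17.6% did so with hyperoxia lower), and the exception was Tbx3. A fold change of at least 2 was reached by Rprml, Apln and Chst1, beside 5.62% of all genes tested. Chst1 was at this boundary, with a log2 fold change of 0.95 when libraries were scaled to the pan-endothelial markers, and without normoxia 3 Car4 (1.03) and Tbx2 (1.01) reached it too, making 5 genes. With the level of alveolar type 2 (AT2) cell markers as a covariate, 1 of the 10, Apln, was called higher. Of all 15564 genes tested, that fit called 195 higher and 41 lower, against 2875 and 2660 without the covariate. The summed level of the AT2 markers was higher in every hyperoxia library than in any normoxia library. The call for Tbx3 was also lost under other settings, given with its values.

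**Figure D1:**
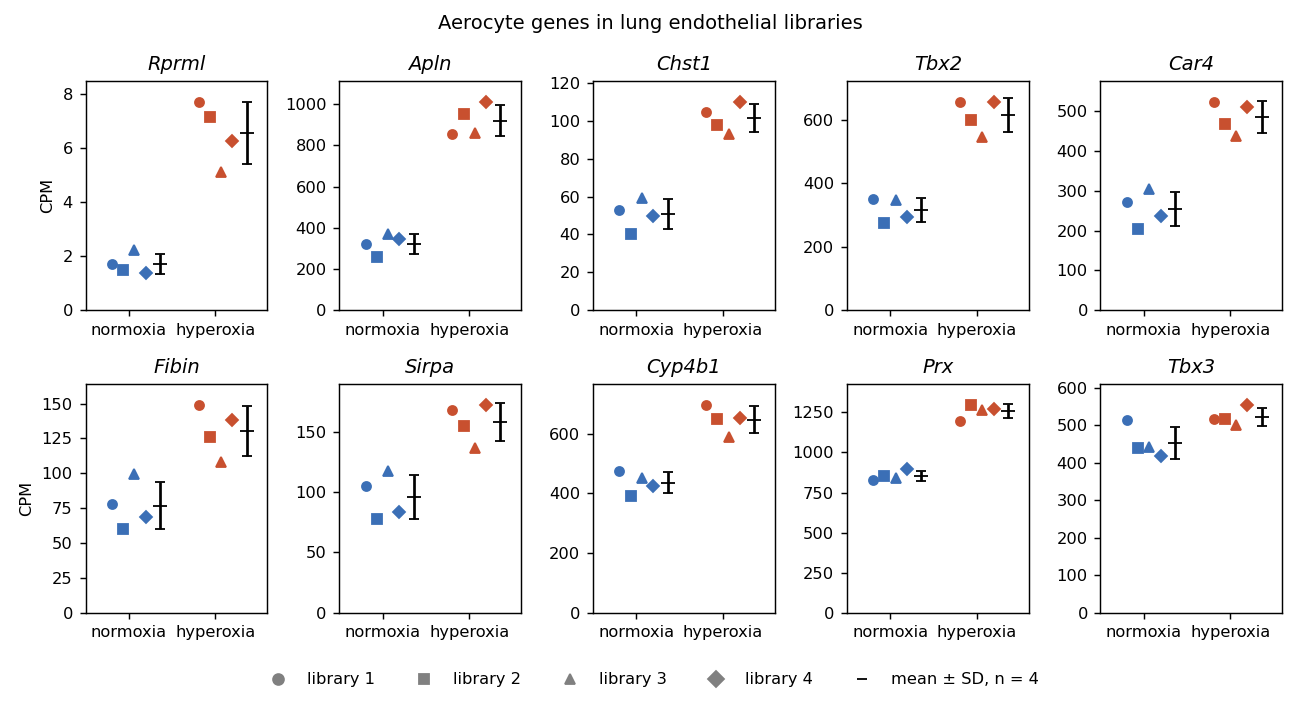
CPM (linear axis from 0) of the 10 aerocyte genes in each library. Each symbol is a library, the symbol shape gives its number, which does not pair the groups, and the bars give the mean ± SD of 4 libraries. The groups are separate for every gene except Tbx3, where hyperoxia 3 at 500.2 CPM lies below normoxia 1 at 513 CPM.

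Because the genes rose together but by different amounts, their promoters were searched for 4 short motifs, and the windows that held a match are shown. RefSeq promoters (GRCm38.p6) were matched for 7 of the 10 genes and not for Tbx2, Sirpa and Tbx3. The 250 bases before each start were searched on both strands for the letters of the T-box core (GGTGTG), the hypoxia response core (ACGTG), the GC box (GGGCGG) and the ETS core (CCGGAA). Capitals mark the matches on either strand.
Apln, chrX:48034854-48035103, minus strand: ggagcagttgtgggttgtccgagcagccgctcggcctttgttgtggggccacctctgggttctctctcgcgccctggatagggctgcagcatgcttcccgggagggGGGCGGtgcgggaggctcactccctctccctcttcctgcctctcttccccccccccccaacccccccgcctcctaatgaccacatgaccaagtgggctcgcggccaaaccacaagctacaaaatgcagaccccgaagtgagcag
Rprml, chr11:103649259-103649508, plus strand: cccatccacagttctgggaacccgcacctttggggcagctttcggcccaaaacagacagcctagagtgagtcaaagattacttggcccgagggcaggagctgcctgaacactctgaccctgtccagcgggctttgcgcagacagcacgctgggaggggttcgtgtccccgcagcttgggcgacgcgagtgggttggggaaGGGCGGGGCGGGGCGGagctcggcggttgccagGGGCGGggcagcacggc
Car4, chr11:84957504-84957753, plus strand: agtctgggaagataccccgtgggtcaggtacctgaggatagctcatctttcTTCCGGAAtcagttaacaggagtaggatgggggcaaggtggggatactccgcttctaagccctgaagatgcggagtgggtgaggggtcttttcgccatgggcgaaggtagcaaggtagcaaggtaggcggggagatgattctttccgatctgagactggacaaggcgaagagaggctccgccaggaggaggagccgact
Cyp4b1, chr4:115647722-115647971, minus strand: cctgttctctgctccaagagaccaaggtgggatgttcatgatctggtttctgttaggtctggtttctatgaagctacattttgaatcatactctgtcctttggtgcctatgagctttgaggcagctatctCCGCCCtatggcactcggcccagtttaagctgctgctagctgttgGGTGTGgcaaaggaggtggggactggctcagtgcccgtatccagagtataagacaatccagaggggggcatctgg
No letter pattern was shared by all of these windows. The GC box was found in 3 of the 7 windows, those of Apln, Rprml and Cyp4b1, beside 32.7% of 32851 RefSeq promoters, and Rprml held 4 matches, of which 3 overlap at their ends. The T-box core was found in Cyp4b1 alone, 75 to 70 bases before the start, beside 16.3% of promoters. The ETS core was found in Car4 alone, as 2 overlapping matches on opposite strands between 199 and 192 bases before the start, beside 12% of promoters. The hypoxia core was in 0 of the 7 windows, beside 16.6% of promoters. The windows of Fibin, Prx and Chst1 held no match. They lie before RefSeq starts, which can differ from the ends of the gene spans given below. The Chst1 window lies inside the span of its gene and the Fibin window partly inside that of its own. The bases before those spans were therefore not all searched. A match of letters is a description of the window only.

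Apln (chrX:48025146-48034853, minus strand, GRCm38, as are all gene positions here) encodes the secreted peptide apelin, which signals in capillary growth. It stood at 322, 257, 369 and 343 CPM in normoxia 1 to 4 and at 853, 954, 862 and 1011 CPM in hyperoxia 1 to 4. The lowest hyperoxia library was 2.31 times the highest normoxia library, so the groups lay far apart. Means were 323 ± 47.9 and 920.3 ± 75.9 CPM (SD, n = 4), which gave 1.51 as log2 fold change (SE 0.103, adjusted p = 2.31e-06). Aplnr, the receptor for apelin and one of the gCap markers, moved the other way. It stood at 514, 536, 524 and 549 CPM in the normoxia libraries and 287, 309, 344 and 275 CPM in the hyperoxia libraries, without overlap. On the log2 scale it changed by -0.80 (SE 0.067, adjusted p = 8.7e-06). Apela, the other known ligand of this receptor, was near 0 in every library and was not tested.

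Among the surface proteins, Car4 (chr11:84957786-84966044, plus strand) encodes a membrane-anchored carbonic anhydrase, which interconverts CO2 and bicarbonate at the capillary wall and is a widely used marker of aerocytes. Its levels were 271, 205, 304 and 236 CPM in the normoxia libraries and 524, 468, 437 and 510.4 CPM in the hyperoxia libraries. The groups did not overlap, and normoxia 2 was the lowest library of all. The rise on the log2 scale was 0.93 (SE 0.110, adjusted p = 9.93e-05), from 254 ± 43.1 to 485 ± 39.9 CPM. Of 5 other carbonic anhydrase genes 4 were tested, of which 2 were lower, 1 higher and 1 not past the threshold. Car14, a transmembrane relative, fell from 32.1 ± 1.14 to 14.9 ± 1.23 CPM (-1.11 on the log2 scale, adjusted p = 1.83e-06), the deepest fall among the partners and paralogs of the aerocyte genes. Car2, a cytosolic relative named here after its values were seen, fell from 229 ± 12.5 to 130 ± 14.2 CPM.

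Sirpa (chr2:129592835-129632228, plus strand) encodes an immunoglobulin-family receptor that binds CD47 and restrains phagocytosis. Its levels were 105, 78.0, 118 and 83.2 CPM in the normoxia libraries and 168, 155, 137 and 173 CPM in the hyperoxia libraries. The groups lay close together, with the lowest hyperoxia library 1.16 times the highest normoxia library. The rise on the log2 scale was 0.72 (SE 0.124, adjusted p = 0.00116), from 96.0 ± 18.6 to 158 ± 16 CPM. Cd47, its ligand, fell slightly, from 175 ± 5.09 to 158 ± 8.42 CPM (-0.15 on the log2 scale, adjusted p = 0.03). Sirpa is also a known gene of macrophages, whose part in its rise was not tested. The summed CPM of 9 myeloid markers ranged from 175 to 354 in normoxia and from 227 to 521 in hyperoxia, 2 of the 9 were higher and 1 lower past the threshold, and Lyz2, with the highest CPM of them, ranged from 45.8 to 124 CPM in normoxia and from 101 to 315 CPM in hyperoxia. The related genes Sirpb1a, Sirpb1b and Sirpb1c had at most 29 counts in any library.

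Tbx2 and Tbx3 encode 2 closely related T-box transcription factors, both known mainly as repressors, and they did not rise alike. Tbx2 (chr11:85832551-85841948, plus strand) stood at 349, 273, 348 and 294 CPM in the normoxia libraries and 656, 600.2, 545 and 655 CPM in the hyperoxia libraries, without overlap. On the log2 scale Tbx2 rose by 0.96 (SE 0.0901, adjusted p = 2.06e-05), from 316 ± 38.3 to 614 ± 53.0 CPM. Tbx3 (chr5:119670669-119684724, plus strand) stood at 513, 438, 441 and 417 CPM in the normoxia libraries and 516, 517, 500.2 and 555 CPM in the hyperoxia libraries. The Tbx3 groups overlapped through normoxia 1, and the rise on the log2 scale was 0.21 (SE 0.0656, adjusted p = 0.0309), from 452 ± 41.7 to 522 ± 23.5 CPM. Within each library the count of Tbx2 was 0.623 to 0.790 of the count of Tbx3 in normoxia and 1.09 to 1.27 of it in hyperoxia, so the proportion was higher in each hyperoxia library than in any normoxia library.

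The call for Tbx3 was the least stable of the 10. It was lost when normoxia 2 (adjusted p = 0.0721), normoxia 3 (0.0686), normoxia 4 (0.0904), hyperoxia 2 (0.0630) or hyperoxia 4 (0.0851) was left out. It was also lost with no scaling beyond library totals (adjusted p = 0.0622) and when libraries were scaled to the pan-endothelial markers (0.14). Tbx3 shares 1.74% of its exon bases with the antisense gene Tbx3os1, itself at 25.3 CPM in the normoxia libraries and 47.1 CPM in the hyperoxia libraries. Whether the counting used strand is not given in the sources used here, so reads in the shared bases cannot be told apart. The T-box relatives Tbx4 and Tbx5, known from lung mesenchyme, stood at 5.06 ± 2.06 and 1.84 ± 0.932 CPM in normoxia. They were higher in hyperoxia, at 10.9 ± 3.11 CPM (adjusted p = 0.0119) and 4.99 ± 1.90 CPM (adjusted p = 0.013), with groups that overlapped. The summed CPM of 8 fibroblast markers ranged from 146 to 286 in normoxia and from 223 to 527 in hyperoxia, with 5 of the 7 tested higher, and its part in the values of the T-box genes and of Fibin was not tested.

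Prx (chr7:27499324-27520214, plus strand) encodes periaxin, a scaffold protein best known from the myelin sheath of peripheral nerves. It stood at 828, 855, 839 and 895 CPM in the normoxia libraries and 1198, 1299, 1263 and 1273 CPM in the hyperoxia libraries. It was the steadiest of the 10, with a coefficient of variation of 3.44% in normoxia and 3.42% in hyperoxia, and the groups did not overlap. It rose by 0.56 on the log2 scale (SE 0.0455), with the second smallest adjusted p of the 10 (7.55e-06), from 854 ± 29.4 to 1258 ± 43.1 CPM. The part of Schwann cells in its rise was not tested. The 5 markers of these cells summed to 4.58 to 9.85 CPM in normoxia and 6.18 to 9.82 CPM in hyperoxia, and 0 of the 2 tested passed the threshold. Of the other periaxin partners, Dag1 (dystroglycan) was higher, from 220 ± 10.4 to 285 ± 26.1 CPM, while Ahnak, with the highest CPM of the partners and paralogs, stood at 777 ± 43.3 and 697 ± 49.1 CPM and did not pass the threshold (adjusted p = 0.07). Prx shares 5.38% of its exon bases with the antisense gene Gm15541, which stood at 6.01 CPM in the normoxia libraries and 8.57 CPM in the hyperoxia libraries.

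Cyp4b1 and Chst1 encode enzymes. Cyp4b1 (chr4:115624725-115647723, minus strand), a cytochrome P450 that hydroxylates fatty acids and foreign compounds, stood at 474, 391, 449.9 and 426 CPM in the normoxia libraries and 698, 648, 590.1 and 653 CPM in the hyperoxia libraries. The groups did not overlap, and the rise on the log2 scale was 0.57 (SE 0.0688, adjusted p = 0.000113), from 435 ± 35.5 to 647 ± 44.2 CPM. Cyp4b1 is also a gene of airway club cells, whose part in its rise was not tested. The 6 airway markers summed to 2.76 to 5.47 CPM in normoxia and 3.34 to 4.46 CPM in hyperoxia, with Krt5 at 0 counts, 1 of the 3 tested lower (Scgb3a1) and none of the 3 higher past the threshold. Scgb1a1, a defining club cell gene named, like Scgb3a1, after its values were seen, averaged 0.551 CPM in normoxia against 1.09 CPM in hyperoxia (adjusted p = 0.0511). Chst1 (chr2:92599707-92615250, plus strand), a Golgi sulfotransferase that sulfates galactose in keratan sulfate, stood at 52.8, 40.3, 59.3 and 49.9 CPM in the normoxia libraries and 104, 97.7, 93.2 and 110.1 CPM in the hyperoxia libraries. The groups did not overlap, and the rise on the log2 scale was 1.0 (SE 0.102, adjusted p = 3.68e-05), from 50.6 ± 7.90 to 101 ± 7.41 CPM. Chst2, a related sulfotransferase named after its values were seen, was higher by more, from 38.2 ± 7.48 to 117 ± 10.6 CPM (log2 fold change 1.62).

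Fibin and Rprml are the least described of the 10. Fibin (chr2:110360917-110363183, minus strand) encodes a secreted protein named for its part in zebrafish fin bud initiation. It stood at 78.3, 60.4, 99.6 and 69.0 CPM in the normoxia libraries and 149, 126, 108 and 138 CPM in the hyperoxia libraries. The groups only just cleared each other, with hyperoxia 3 at 1.08 times normoxia 3, and the rise on the log2 scale was 0.76 (SE 0.143, adjusted p = 0.00196), from 76.8 ± 16.8 to 130.4 ± 17.7 CPM. Rprml (chr11:103649570-103650579, plus strand) is a small relative of Rprm (reprimo), a p53 target gene linked to cell cycle arrest. Rprml had the largest fold change and the fewest reads, with 28, 26, 40 and 25 counts in normoxia and 135, 126, 89 and 113 counts in hyperoxia. The groups were widely apart, and on the log2 scale Rprml rose by 1.94 (SE 0.200, adjusted p = 3.97e-05), from 1.70 ± 0.383 to 6.55 ± 1.14 CPM. Rprm itself had few reads, at 0 to 0.245 CPM in normoxia and 0.630 to 1.70 CPM in hyperoxia, and passed the threshold as higher (adjusted p = 0.00113).

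**Figure D2:**
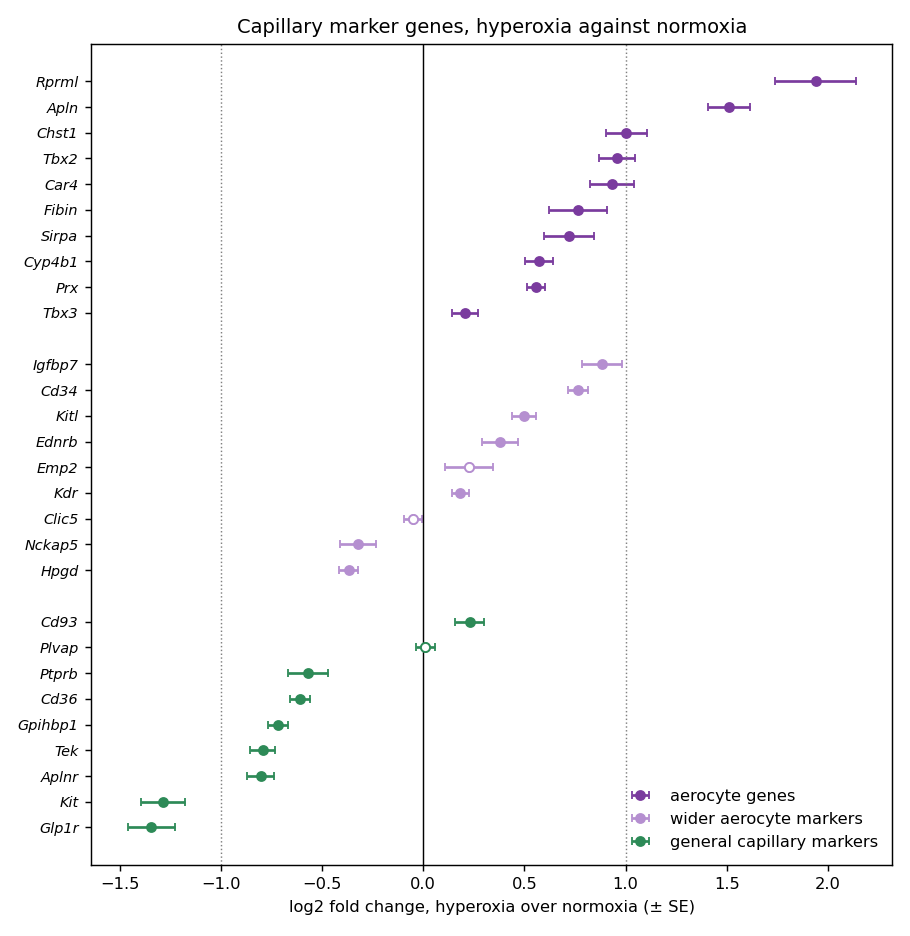
Log2 fold change (hyperoxia over normoxia, bars ± SE from the edgeR fit, n = 4 libraries per group) of the 10 aerocyte genes, 9 wider aerocyte markers and 9 gCap markers. Open circles did not pass the adjusted p threshold and dotted lines mark a fold change of 2 either way. The 10 aerocyte genes all lie right of 0, between 0.21 and 1.94, while the wider markers lie on both sides.

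Compared per length in the deposited FPKM, the order of the levels changed between the groups. In normoxia the order was Cyp4b1 (191 ± 16.3 FPKM), Prx (152 ± 5.17), Car4 (128 ± 22.1), Apln (102 ± 15.4), Tbx2 (86.5 ± 10.8), Tbx3 (67.8 ± 6.37), Fibin (33.6 ± 7.45), Sirpa (19.4 ± 3.80), Chst1 (18.7 ± 2.98) and Rprml (1.67 ± 0.379). The ranges of neighbours from Prx down to Tbx3, and of Sirpa and Chst1, overlapped. In hyperoxia Apln stood first at 291 ± 24.0 FPKM, with a range that overlapped that of Cyp4b1 (285 ± 18.8), followed by Car4 (245 ± 19.5), Prx (224 ± 8.21), Tbx2 (168 ± 14.1), Tbx3 (78.4 ± 3.40), Fibin (57.2 ± 7.60), Chst1 (37.6 ± 2.65), Sirpa (32.0 ± 3.17) and Rprml (6.45 ± 1.11). The ranges of Apln, Cyp4b1, Car4 and Prx overlapped each with the next, as did those of Chst1 and Sirpa. Apln thus went from the fourth to the first place, and its share of the counts of the 10 genes from 11.3% to 19.0%, while the share of Tbx3 went from 15.8% to 10.8%.

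Ratios of 2 genes within a library do not depend on how libraries are scaled, and they showed that the 10 genes did not move alike. Of the 45 pairs, 31 (68.9%) had log2 count ratios that did not overlap between normoxia and hyperoxia, beside 33.2% of all pairs of genes tested. Most genes in that background were not called, while all 10 genes here were, and the 45 pairs are not independent. The 2 shares are therefore a description only. Apln and Rprml were each higher relative to 8 of the other 9 genes and overlapped only with each other. Tbx3 was lower relative to 8 of the other 9 and overlapped only with Fibin. Between these ends lay the other 7 genes. Among Chst1, Tbx2, Car4, Fibin and Sirpa, grouped after their like fold changes were seen, the 10 ratios shifted by at most 0.279 on the log2 scale and 6 of them overlapped. The ratio of Prx to Cyp4b1, a pair also chosen after its values were seen, shifted by -0.015 and overlapped.

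Car4 serves as the reference of these shifts, given as the hyperoxia minus the normoxia mean of the log2 ratio to Car4. Rprml shifted by 1.01 and Apln by 0.58, both without overlap. Chst1 (0.07) and Tbx2 (0.02) stayed with Car4, with overlapping ratios. Fibin (-0.17), Sirpa (-0.21), Cyp4b1 (-0.37) and Tbx3 (-0.73) fell behind Car4 without overlap, while Prx (-0.39) overlapped. The count of Chst1 was 0.195 to 0.211 of that of Car4 in normoxia and 0.200 to 0.216 in hyperoxia, so the 2 genes kept nearly the same proportion in all 8 libraries. The count of Apln was 1.19 to 1.45 times that of Car4 in normoxia and 1.63 to 2.04 times in hyperoxia.

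**Figure D3:**
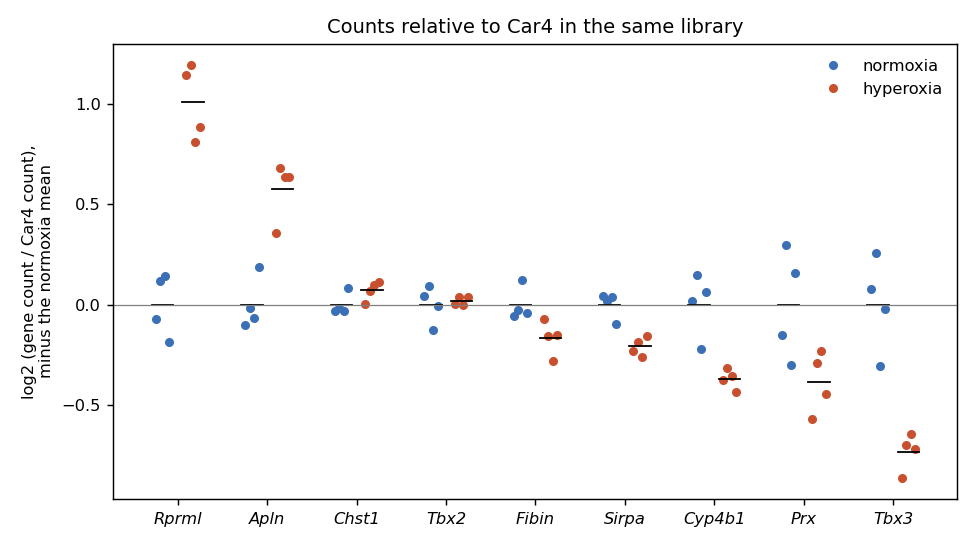
Log2 ratio of each gene's count to the Car4 count of the same library, minus the gene's normoxia mean. Each point is a library (4 normoxia, 4 hyperoxia) and short lines are group means. Rprml (1.01) and Apln (0.58) lie above their normoxia points, Chst1 and Tbx2 stay near 0, and Tbx3 (-0.73) lies lowest.

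The libraries of a group also differed in step across these genes. Normoxia 2 was the lowest normoxia library in 7 of the 10 genes, beside 28.9% of all genes tested, and normoxia 3 the highest in 6, beside 25.2%. Hyperoxia 3 was the lowest hyperoxia library in 8 of the 10, beside 27.8% of all genes tested, and hyperoxia 1 and hyperoxia 4 were the highest in 5 and 4, beside 26.9% and 23.1%. The exceptions in normoxia were Prx, lowest in normoxia 1, and Rprml and Tbx3, lowest in normoxia 4, and those in hyperoxia were Apln and Prx, lowest in hyperoxia 1. As given above, normoxia 2 and hyperoxia 4 held male RNA and hyperoxia 3 female RNA. The part of this make-up in the differences between libraries was not tested.

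**Figure D4:**
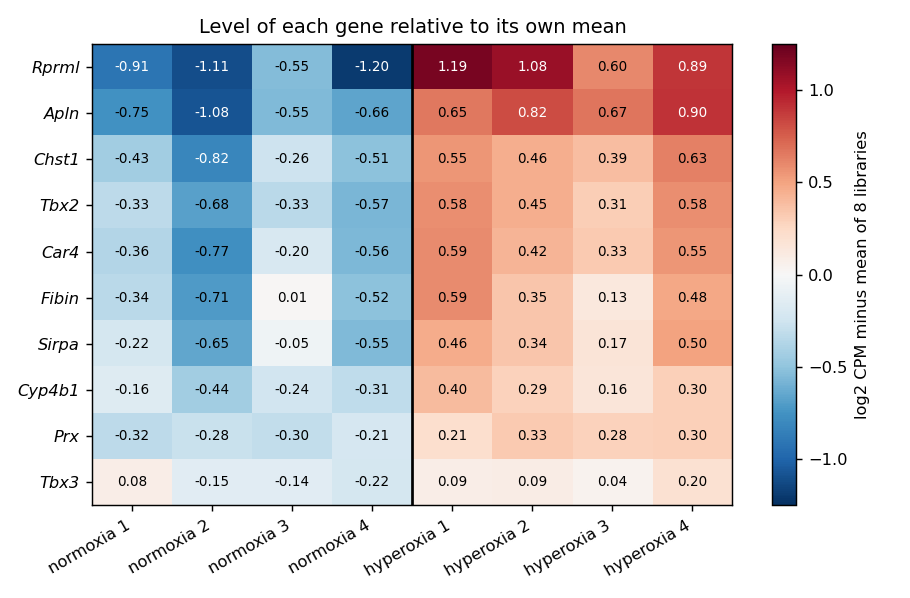
Log2 CPM of each aerocyte gene in each library minus the gene's mean over the 8 libraries (colour and printed value). The vertical line parts normoxia from hyperoxia. Within normoxia, library 2 is the darkest blue for most genes, and within hyperoxia, library 3 is the palest red for most.

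A wider set of 9 markers seen in aerocytes had 5 genes higher, 2 lower and 2 not past the threshold, beside 18.5% higher and 17.1% lower over all genes tested. The median log2 fold change of the 9 was 0.23. Igfbp7, a secreted matrix protein, had the largest rise, from 626 ± 95.3 to 1155 ± 90.6 CPM (log2 fold change 0.88). Kdr, a VEGF receptor with the highest CPM of the 9, rose little, from 1956 ± 64.8 to 2222 ± 50.9 CPM (0.18 on the log2 scale, adjusted p = 0.00705). The remaining genes called higher, named after their values were seen, were Cd34 (log2 fold change 0.77), Kitl (0.50) and Ednrb (0.38). The groups of Ednrb overlapped. Hpgd, which inactivates prostaglandins, had the largest fall, from 1014 ± 29.8 to 785 ± 31.5 CPM (log2 fold change -0.37). The other genes not called higher were also named after their values were seen. They were Nckap5, which fell (log2 fold change -0.32), and Emp2 (0.23, adjusted p = 0.170) and Clic5 (-0.05, adjusted p = 0.387), which did not pass the threshold.

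Of 17 partners and paralogs of the 10 genes, 14 were tested, of which 8 were higher, 4 lower and 2 not past the threshold, with a median of 0.30. The same shares over all genes tested, 18.5% higher and 17.1% lower, apply here and to the gCap markers. The 9 gCap markers had a median of -0.72, with 7 lower, 1 higher (Cd93) and 1 not past the threshold (Plvap). Ptprb, a phosphatase of the vascular endothelium with the highest CPM of them, fell from 3691 ± 449 to 2488 ± 275 CPM, and Glp1r fell furthest, from 194 ± 23.9 to 76.5 ± 12.5 CPM (log2 fold change -1.35). The aerocyte and gCap values come from the same 8 libraries and the same scaling.

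Markers of alveolar epithelium rose in the same libraries as the aerocyte genes. All 9 AT2 markers were higher, with a summed level of 247 to 344 CPM in normoxia and 777 to 2314 CPM in hyperoxia, and so were all 8 alveolar type 1 markers, at 101 to 121 CPM and 215 to 550 CPM (exact permutation p = 0.0286 for each sum). None of these markers was at 0 in all libraries. The lowest hyperoxia level of both lists was in hyperoxia 3, the library in which 8 of the 10 aerocyte genes were lowest. This was not particular to alveolar epithelium. Hyperoxia 3, which held female RNA, was also the lowest hyperoxia library for the fibroblast (223 CPM), mural (45.4 CPM), myeloid (227 CPM) and Schwann cell (6.18 CPM) sums. It was not the lowest for the gCap, arterial, venous, lymphatic or airway sums. The part of these differences in the aerocyte values was not tested. Leaving out hyperoxia 3, which widens the AT2 difference between the groups, gave 10 genes called higher, with log2 fold changes from 0.23 for Tbx3 to 2.04 for Rprml. With the AT2 level as a covariate, 1 of the 10, Apln, passed the threshold (log2 fold change 1.36, adjusted p = 0.0467), Prx had a log2 fold change of 0.61 but was no longer called (SE 0.135, adjusted p = 0.0616), the other 7 besides Tbx3 had log2 fold changes of 0.14 to 1.07, and Tbx3 came to -0.01. Over all 15564 genes tested, that fit called 195 higher and 41 lower, against 2875 and 2660 without the covariate. AT2 levels did not overlap between the groups, so the group and the AT2 level cannot be told apart.

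Markers of other cell types were also called in these libraries, beside 18.5% called higher and 17.1% lower over all genes tested. Lymphatic EC markers were higher in 5 of 6, with sums of 1250 to 1339 CPM in normoxia and 1873 to 2143 CPM in hyperoxia, and arterial EC markers were lower in 5 of 8, with sums of 2919 to 3595 and 2093 to 2340 CPM (exact permutation p = 0.0286 for each). Venous EC markers were higher in 3 of the 5 tested, with sums of 2413 to 3075 and 2586 to 3460 CPM. Markers of mural cells, the smooth muscle cells and pericytes of vessel walls, were higher in 6 of the 7 tested. Their sums were 23.5 to 47.9 and 45.4 to 107 CPM. The venous and the mural sums overlapped between the groups (exact permutation p = 0.114 for venous and 0.0571 for mural markers). The part of these cell types in the aerocyte values was not tested.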

How the data were processed

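Bulk RNA-seq of lung ECs gave 4 normoxia and 4 hyperoxia libraries, grouped by their titles. The authors deposited gene counts and FPKM. The submitters' processing notes name HISAT2 2.0.5, featureCounts 1.5.0-p3 and mm10, and strand and multi-mapping settings are not given in the sources used here. The deposited counts were fitted with edgeR 4.0.16 (filterByExpr, TMM, quasi-likelihood test, all 8 libraries, no covariate, two-sided) over 15564 genes, with the threshold at a Benjamini-Hochberg adjusted p of 0.05. CPM were computed with TMM. The deposited FPKM, scaled per length by the authors, were used to order levels. The fit was tested on simulated data (180 of 200 changed genes recovered, 14 false calls, 15564 genes). Unmapped per-sample columns numbered 0.

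The 10 genes and all lists were chosen with earlier results of these data known. All 10 were named in full, and of the other lists the most abundant gene, the largest change in each direction and direct partners. For Apln, Car4 and Cyp4b1 the 3 protein-coding genes of at least 10 CPM with the nearest centred log2 CPM profiles were named. Promoters came from RefSeq and exons from GENCODE. Alternatives were DESeq2 1.42.0, limma 3.58.1 on log2(FPKM + 0.1) and log2(FPKM + 1), other scalings and filters, covariates, a replicate block and leaving out each library.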

Additional observations from a re-analysis of the deposited data

Results flagged for a closer look

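In hyperoxia 3 the alveolar type 1 markers summed to 215 CPM, far from the other hyperoxia libraries at 510.5 to 550 CPM. In normoxia 1 the markers of mural cells, the smooth muscle cells and pericytes of vessel walls, summed to 47.9 CPM beside 23.5 to 27.6 CPM in the other normoxia libraries. Both stood out by Dixon's ratio of the gap to the range. Of 52 groups of 4 tested, 2 stood out, while chance gives about 1 in 20, or 2.6.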

How the results depend on the processing

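In the 20 alternatives none of the 10 genes was called lower, and Apln was called higher in all 20. Car4, Tbx2, Fibin, Prx, Chst1, Rprml, Sirpa and Cyp4b1 were called higher in 19 of 20, all except the AT2 covariate. Tbx3 was called in 10. The number called higher was 9 to 10 when each library was left out. It was 9 with library totals, pan-endothelial scaling, the replicate block or the 5 libraries with RNA of both sexes (Tbx3 adjusted p = 0.18, chosen after seeing the data). It was 1 with the AT2 covariate, where Tbx3 turned to -0.013 and 195 genes were called higher and 41 lower over all genes. The number with a fold change of at least 2 was 3, with a range of 2 to 5 when each library was left out (5 without normoxia 3, where Car4 and Tbx2 came to log2 fold changes of 1.03 and 1.01), and 1 with the AT2 covariate. Replicate numbers are shared by the groups, but same-numbered libraries did not deviate together (correlations 0.119, 0.0361, -0.125 and -0.140), so the block is given only here. It left 9 of the 10 called (Tbx3 log2 fold change 0.21, adjusted p = 0.0558) and 2582 higher and 2210 lower over all genes, against 2875 and 2660 without it. Scaling to the pan-endothelial markers moved the share of higher among called genes from 51.9% to 40.9%. Depth limited Rprml most, at 25 to 135 counts a library.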

Other observations

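Genes with profiles near those of Apln, Car4 and Cyp4b1 were found by the root mean square distance of centred log2 CPM over the 8 libraries. The 9076 genes compared included other genes of the aerocyte list. The nearest to Car4 were Chst1 (0.0574) and Tbx2 (0.0602), both aerocyte genes, with Ptp4a3 (0.0589), a phosphatase, between them. Ptp4a3 averaged 197 CPM in the normoxia and 367 CPM in the hyperoxia libraries. The nearest to Apln were Tbc1d9 (0.0701), Bax (0.111) and Arhgap6 (0.111). Bax, an effector of apoptosis and a p53 target, stood at 54.1 and 146 CPM, and Tbc1d9 at 12.8 and 36.3 CPM. The nearest to Cyp4b1 were Sept4 (0.0387), Edil3 (0.0458) and Vmp1 (0.0475). These distances are over libraries that share both groups, so a gene with a like fold change is near for that reason as well.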
